A study of Mus musculus with 4 samples.

Results

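Genes of bone morphogenetic protein (BMP) and transforming growth factor β (TGF-β) signaling were followed through the cell classes of the mouse brain vasculature. They were 10 of the 31053 genes in the feature lists and were taken by symbol: the transcriptional targets Id1, Id2 and Id3, the inhibitory Smads Smad6 and Smad7, the receptors Eng, Acvrl1 and Tgfbr2, and the ligands Tgfb1 and Bmp6. The cells were brain vascular-associated cells (BVACs), isolated with anti-CD31 magnetic beads, collagenase II and mechanical dissociation from brains without cerebellum, striatum, brainstem and olfactory bulbs, and sequenced with 10x Genomics 3′ chemistry, which counts each captured transcript as 1 unique molecular identifier (UMI). All animals were male C57BL/6 mice labelled WT, 12 to 14 weeks old by the study's methods. In the chronic social defeat (CSD) group each mouse lived for 14 days beside an aggressive CD-1 mouse behind a perforated divider. This divider was lifted for a short daily encounter. By the study's methods, mice of the home cage (HC) group lived for 14 days beside a CD-1 mouse behind a divider that stayed in place. Each group was 2 libraries (CSD1, CSD2, HC1 and HC2), each a pool of 4 mice, so that n = 2 per group. A p-value for CSD against HC measures the spread between these pools. A p-value between classes measures the spread of their difference within libraries, with the dispersion estimated partly from all genes.

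In this pathway a ligand dimer brings together type I and type II receptor kinases, which phosphorylate receptor Smads that enter the nucleus with Smad4. Brain endothelial cells (ECs) use the type I receptor Acvrl1 (ALK1) with the co-receptor endoglin (Eng) for circulating BMPs, and loss of either gene causes hereditary hemorrhagic telangiectasia, a disease of arteriovenous malformations. Id1, Id2 and Id3 encode inhibitors of basic helix-loop-helix factors and are classical immediate targets of BMP receptor Smads, while Smad6 and Smad7 are induced by the same signals and feed back on the receptors. Tgfb1 signals through Tgfbr2 and is needed for the homeostatic state of microglia, and Bmp6 is a ligand of the BMP branch.

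Sequence stretches next to start sites are shown, for the member that set arterial apart from capillary ECs (Smad6) and for the target whose class pattern was unlike that of Id1 and Id3 (Id2). Promoter windows from RefSeq (build GRCm38.p6, 250 bases before to 50 after the start) were at hand for 7 of the 10 members. Capitals mark GTCTAGAC, the palindromic Smad box, in Smad6 and GGCGCC, a GC-rich Smad motif, in Id2. Both motifs are their own reverse complement and were searched on both strands.
Smad6: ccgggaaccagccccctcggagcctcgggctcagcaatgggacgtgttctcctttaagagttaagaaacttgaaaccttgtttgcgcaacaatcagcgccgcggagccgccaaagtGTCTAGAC
Id2: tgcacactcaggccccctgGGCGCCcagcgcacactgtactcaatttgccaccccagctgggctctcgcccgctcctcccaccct
The Smad6 stretch is chr9:64022056-64022179 on the minus strand and ends 4 bases into the transcript, so that the palindrome spans the start. The Id2 stretch is chr12:25096258-25096342 on the minus strand and lies upstream of the RefSeq start, inside the longer GENCODE span of the gene given below. GTCTAGAC occurred in 0.213% of 32851 promoter windows and in 1 of the 7 member windows, and GGCGCC in 11.9% of all windows and in 1 of the 7. A shorter Smad motif, CAGAC, was searched as well. It occurred in 49.6% of all windows and in 4 of the 7 (Eng, Id3, Tgfbr2 and Bmp6), not in those of Smad6 and Id2. A match is a run of letters and was not tested for binding. On GRCm38 the genes lie at chr9:63953076-64022059 (Smad6, minus strand), chr12:25093799-25097140 (Id2, minus strand), chr2:152736251-152737410 (Id1), chr4:136143497-136145755 (Id3), chr2:32646595-32682669 (Eng), chr15:101128522-101145336 (Acvrl1), chr9:116084293-116175360 (Tgfbr2, minus strand), chr7:25687002-25705077 (Tgfb1) and chr13:38345107-38500302 (Bmp6).

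Cells were kept with at least 500 UMIs, at least 250 genes and at most 25% mitochondrial UMIs, which left 14415 cells, 2553 to 4934 per library. The libraries held 27297599 to 30361474 UMIs in all, with a median of 1408 to 2357 UMIs per kept cell. CSD2 stood apart from the other libraries: 32.6% of its UMIs were in kept cells against 51.8 to 56.8% in the others, and its gene totals lay 67.9 to 105 chi-square units per degree of freedom from each of the other libraries, which lay 13.7 to 28.8 units from each other. The libraries shared 0 to 9 cell barcodes per pair. Cells were put into classes by marker UMIs, and the names EC, pericyte, microglia and so on mean EC-like, pericyte-like and microglia-like cells by these markers. None of the 10 members was in a marker list. The gate gave 5075 ECs (3093 capillary, 226 arterial, 55 venous and 1701 without a zone), 4436 microglia, 1704 choroid plexus cells, 495 arterial smooth muscle cells (SMCs), 420 pericytes, 290 astrocytes, 129 ependymal cells and 90 T cells, and left 1450 cells unassigned. Levels are CPM, the UMIs of a gene scaled to a common UMI total for each class and library. As a gauge of free RNA, the level in barcodes of at most 100 UMIs is given beside low values. It is the level of free RNA alone, and the part of free RNA in a cell was not measured. Cells can lie well below it: microglia averaged 27.8 CPM of Id1 where free RNA averaged 284 CPM. A level at or below the gauge is therefore not shown to be background.

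Id1 was highest in ECs. It stood at 1549.8 and 2171 CPM in CSD1 and CSD2 and at 1343 and 1993 CPM in HC1 and HC2, so that the 2 libraries numbered 2 lay above the 2 numbered 1 whatever the condition. The order of its class means was arterial ECs (2008 ± 448, SD, n = 4 libraries), capillary ECs (1824 ± 389), venous ECs (1333 ± 907), choroid plexus (633 ± 49.2) and arterial SMCs (554 ± 152), and each of these ranges overlapped the next. Arterial SMCs did not overlap the following class, ependymal cells (206 ± 81.9 CPM). Pericytes (130 ± 69.4), T cells (40.7 ± 55.2) and microglia (27.8 ± 13.6) held less Id1 in every library than free RNA did, which averaged 284 CPM.

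Id3 followed Id1 in the endothelium and added the vessel wall. Arterial SMCs led with 1662 and 1874 CPM in the CSD libraries and 1519 and 2059 CPM in the HC libraries, ahead of arterial ECs (1704 ± 336, SD, n = 4), capillary ECs (1509.9 ± 145) and venous ECs (988 ± 399), with overlap between each pair of neighbours. The venous range ended above that of choroid plexus (549 ± 22.3 CPM). The 49 fibroblasts, 6 to 21 per library and too few for a test, reached 2353 and 5483 CPM of Id3 in CSD1 and CSD2 and 2467 and 3007 CPM in HC1 and HC2, from 63 to 131 UMIs each. Microglia lay at 20.3 ± 5.83 CPM, under the free RNA mean of 354 CPM. Over the 10 classes tested, Id1 and Id3 had Pearson r = 0.934 on the log2(CPM + 10) scale, a description over classes that share libraries.

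Id2 had another order. Astrocytes (580 ± 164 CPM, SD, n = 4), microglia (548 ± 232), T cells (531 ± 199) and arterial SMCs (328 ± 39.8) led it, and the ranges of these neighbours overlapped. Microglia held 659 and 394 CPM in CSD1 and CSD2 and 819 and 322 CPM in HC1 and HC2, the libraries numbered 1 being the higher in both groups. ECs, at 182, 131, 185 and 138 CPM in CSD1, CSD2, HC1 and HC2, were close to the free RNA mean of 149 CPM. Pericytes were the lowest class at 24.4 ± 17.3 CPM.

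Smad6, which blocks BMP type I receptors and competes for Smad1, was concentrated in arterial ECs. Its level there was 107 and 153 CPM in CSD1 and CSD2 and 114 and 41.7 CPM in HC1 and HC2, from 27, 22, 24 and 6 UMIs. Capillary ECs followed at 30.6 ± 13.2 CPM (SD, n = 4), venous ECs at 26.3 ± 36.0 CPM (0 to 76.3 CPM) and arterial SMCs at 18.3 ± 3.03 CPM. Choroid plexus, at 7.59 ± 1.97 CPM, was above the free RNA of its own library in 4 of 4 libraries. Pericytes held 1 Smad6 UMI in all, microglia 6, 3, 4 and 1 in CSD1, CSD2, HC1 and HC2, and astrocytes and T cells held 0.

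Smad7, which targets the TGF-β type I receptor for degradation, was instead highest in microglia, at 362 and 324 CPM in CSD1 and CSD2 and 345 and 284 CPM in HC1 and HC2. T cells (274 ± 84.9 CPM, SD, n = 4) and arterial ECs (252 ± 22.8) overlapped their upper neighbours. Arterial ECs lay wholly above capillary ECs (202 ± 20.3), which lay wholly above arterial SMCs (116 ± 19.4). Choroid plexus was the lowest at 19.2 ± 2.46 CPM, under the free RNA mean of 37.3 CPM.

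The receptors Eng and Acvrl1 were endothelial. Eng stood at 461, 640, 535 and 484 CPM in the ECs of CSD1, CSD2, HC1 and HC2, with capillary (531 ± 82.8, SD, n = 4), arterial (522 ± 97.7) and venous (318 ± 106) ranges overlapping in that order. Pericytes were next at 155 and 155 CPM in the CSD libraries and 181 and 166 CPM in the HC libraries. They lay below the venous range and wholly above every remaining class. Acvrl1 stood at 357, 469, 409 and 369 CPM in the ECs of the same libraries. Its arterial (467 ± 76.9), capillary (396 ± 42.0) and venous (356 ± 42.6) ranges overlapped, and no other class exceeded 48.6 CPM in any library among those tested.

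Tgfbr2, the type II receptor for TGF-β, was broader. Microglia held 178, 156, 250.8 and 203 CPM in CSD1, CSD2, HC1 and HC2, and ECs held 148, 176, 151 and 166 CPM, so that the classes overlapped. Pericytes (55.1 ± 6.75 CPM, SD, n = 4) lay wholly above choroid plexus (22.8 ± 3.71), and astrocytes were the lowest at 5.61 ± 7.16 CPM.

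The ligands were highest outside the endothelium. Tgfb1 was highest in microglia, at 245, 229, 291 and 235 CPM in CSD1, CSD2, HC1 and HC2, wholly above every other class tested. Venous ECs followed at 92.9 ± 24.2 CPM (SD, n = 4), and ECs as a whole held 80.6, 58.6, 69.4 and 55.7 CPM. Bmp6 was highest in choroid plexus, the epithelium that secretes cerebrospinal fluid, at 52.4 and 72.3 CPM in the CSD libraries and 63.3 and 52.2 CPM in the HC libraries. Ependymal cells overlapped it at 51.3 ± 18.6 CPM. ECs held 9.32, 1.71, 3.99 and 6.02 CPM of Bmp6, from 20, 4, 8 and 12 UMIs, below the free RNA mean of 16.6 CPM, and venous ECs and T cells held 0 UMIs.

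**Figure D1:**
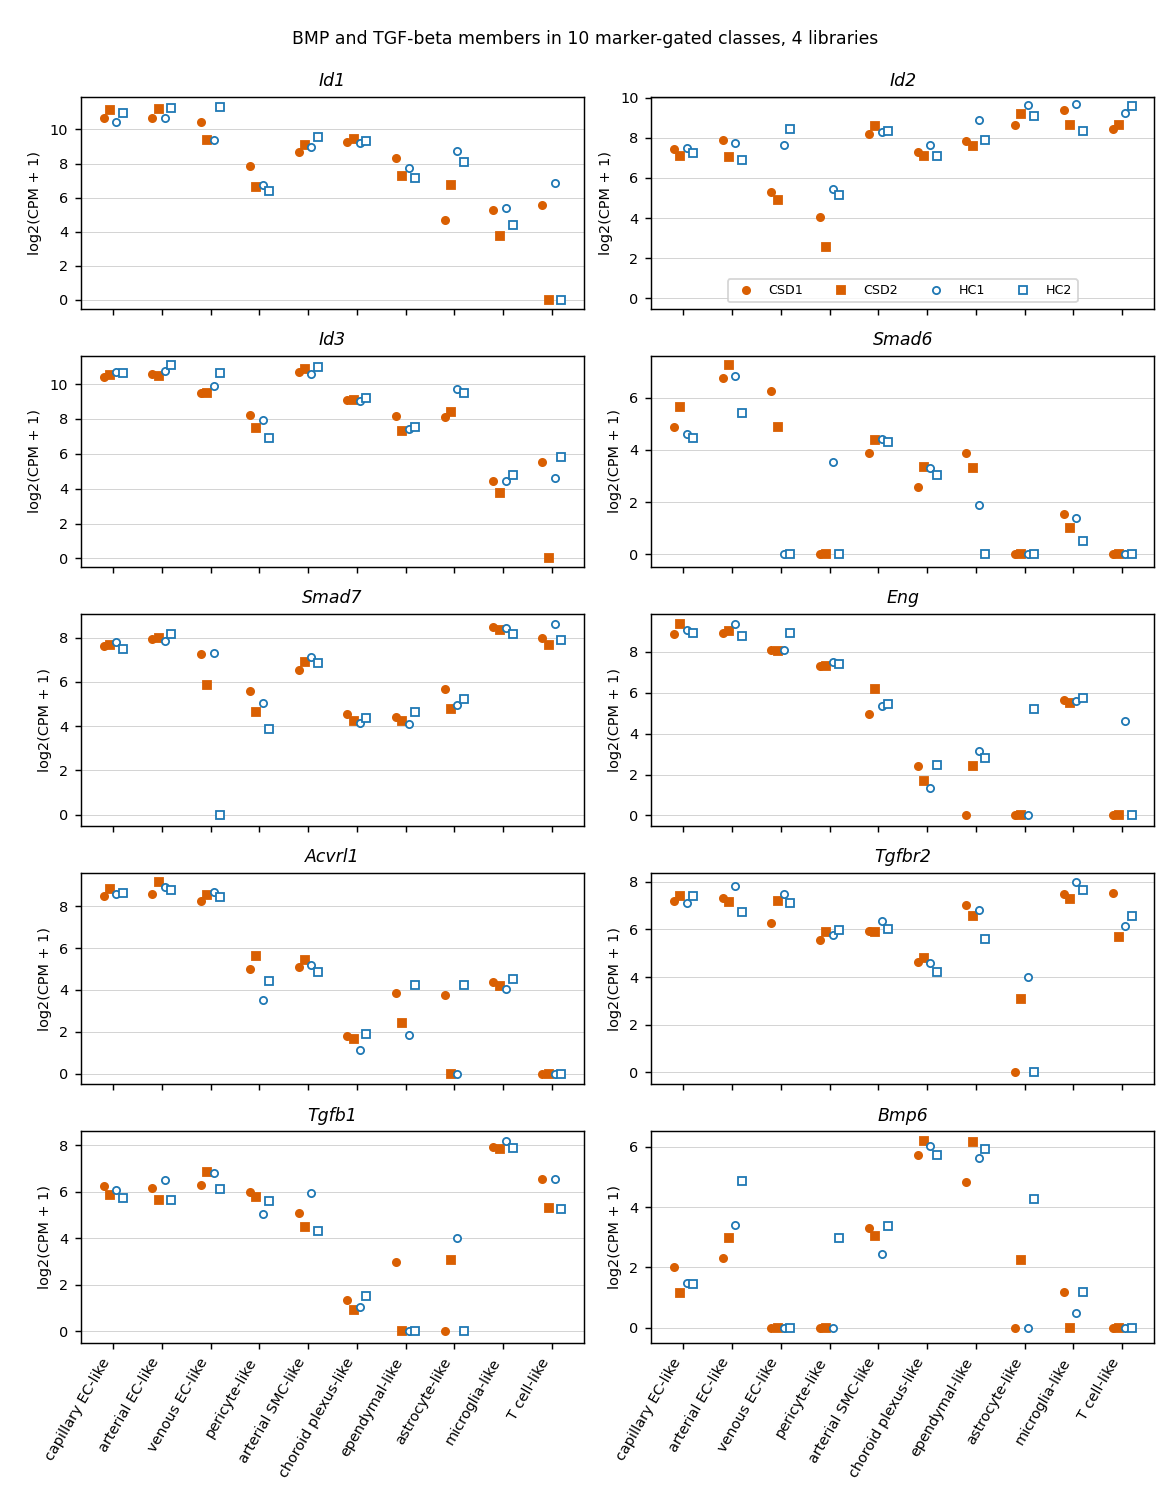
Level of each member as log2(CPM + 1) on the vertical axis in 10 marker-gated classes on the horizontal axis, with 1 point per library (filled for CSD, open for HC; circles for libraries numbered 1, squares for those numbered 2). Acvrl1 and Eng stand high in the 3 EC zones, Tgfb1 is highest in microglia, where it averaged 249.9 CPM, and Bmp6 in choroid plexus, where it averaged 60.04 CPM.

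ECs were first set against pericytes, the mural cells of the same capillaries, within each library. With edgeR's quasi-likelihood test and library as a block, 8 of the 9 members that passed the count filter were higher in ECs and none was lower, against 19.9% of 9056 genes called higher. The median log2 difference of the 9 was 3.02, and that of all genes 0.11. Id1 differed by 4.05 ± 0.22 (log2, SE, adjusted p = 1.14e-71), Acvrl1 by 3.85 ± 0.28 (adjusted p = 1.31e-41), Smad7 by 3.06 ± 0.30, Id3 by 3.02 ± 0.20 and Id2 by 2.88 ± 0.33. Eng (1.82 ± 0.20) and Tgfbr2 (1.63 ± 0.26) differed least among those called, and Tgfb1 was not called (0.47 ± 0.31, adjusted p = 0.26). Smad6 was called, but pericytes held 1 UMI, and the ratio of pooled levels was 22.0 with an exact 95% interval for counting error from 3.93 to 872.

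Endothelial RNA in the pericyte gate bears on these sizes. The 14-gene EC marker list stood in pericytes at 5.24% of its EC level, 1309 to 1514 CPM per library, with none of its genes at 0. The gate itself counted this list and removed cells in which it took much of the marker UMIs, in pericytes as in other classes. The members were not limited in this way, so the percentage is not a measure of their endothelial part. Smad6 (6.24%), Acvrl1 (6.92%) and Id1 (7.36%) stood in pericytes close to that percentage of their EC level. Id3 (14.2%), Smad7 (14.5%), Id2 (15.3%), Eng (31.0%), Tgfbr2 (34.3%) and Tgfb1 (74.1%) stood above it. In pericytes Eng, Tgfbr2 and Tgfb1 were above the free RNA of the same library in 4 of 4 libraries. Smad6, Smad7 and Acvrl1 were above it in 1, and Id1, Id2 and Id3 in 0. The part of endothelial or free RNA in the differences was not tested.

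Of 55 other pathway genes in the files, 34 passed the filter in this comparison. Of these 8 were higher in ECs and 9 higher in pericytes, against 19.9% and 13.4% of all genes. On the pericyte side were the ligands Bmp4 (log2 difference -5.32 ± 0.55, 48.0 ± 14.1 CPM in pericytes) and Bmp5 (-5.06 ± 0.45, 80.0 ± 21.1 CPM) and the TGF-β-induced matrix protein gene Tgfbi (-5.27 ± 0.55). On the EC side the largest differences were those of Ltbp4, which encodes a latent TGF-β binding protein (2.82 ± 0.22), Ctgf, a TGF-β target (2.78 ± 0.31), and the BMP type II receptor gene Bmpr2 (2.72 ± 0.22).

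Against microglia, the other large class, 9 of 9 members tested were called, where 66.3% of 10608 genes were called. Of these 5 were higher in ECs: Id3 (5.91 ± 0.22), Id1 (5.75 ± 0.34), Smad6 (4.75 ± 0.25), Acvrl1 (4.13 ± 0.18) and Eng (3.15 ± 0.17), all log2 differences with SE. The other 4 were higher in microglia: Tgfb1 (-2.22 ± 0.16), Id2 (-2.00 ± 0.17), Smad7 (-1.01 ± 0.14) and Tgfbr2 (-0.57 ± 0.15, adjusted p = 0.0046). Thus each of the targets, inhibitory Smads and receptors had members on both sides. The EC marker list stood in microglia at 0.516% of its EC level. Scaling to class totals instead moved the median of all genes from 0.02 to 0.32 and the split of calls from 3530 higher and 3507 lower to 4720 and 2623, and the Tgfbr2 difference shrank to -0.27 (adjusted p = 0.137).

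Among the other pathway genes 29 of 33 tested were called in this comparison, 15 higher in ECs and 14 higher in microglia. Higher in ECs were Ctgf (7.04 ± 0.31), Ltbp4 (6.53 ± 0.32) and the co-receptor gene Tgfbr3 (6.32 ± 0.33). Higher in microglia were the repressor gene Tgif1 (-4.65 ± 0.17), the TGF-β type I receptor gene Tgfbr1 (-4.49 ± 0.17) and the ligand gene Gdf15 (-4.47 ± 0.49).

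Along the endothelium, Smad6 set arterial apart from capillary ECs. It was the only member called of 9 tested (log2 difference 1.79 ± 0.24, adjusted p = 2.66e-09), against 17.5% of 7023 genes called, 9.57% higher and 7.93% lower. Arterial cells held 79 Smad6 UMIs and capillary cells 161, a ratio of pooled levels of 3.22 with an exact 95% counting interval from 2.43 to 4.24. In each of CSD1, CSD2, HC1 and HC2 the arterial level (107, 153, 114 and 41.7 CPM) was above the capillary level (28.5, 49.8, 23.2 and 20.9 CPM), with HC2 showing the smallest gap. Acvrl1 (0.25 ± 0.11), Smad7 (0.32 ± 0.14) and Id3 (0.18 ± 0.08) had adjusted p-values of 0.104, 0.108 and 0.129, and Eng lay at 0.01 ± 0.10. Without CSD2, Id3 was called as well (0.24, adjusted p = 0.0342).

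Of 22 other pathway genes 10 were called between the zones, 4 higher and 6 lower in arterial ECs. Mgp, a matrix protein that binds BMPs, differed most at 6.00 ± 0.10, with 2588 to 4903 CPM in arterial and 50.8 to 66.9 CPM in capillary ECs and no overlap. Nbl1, a secreted BMP antagonist, differed by 2.24 ± 0.30, and the ligand Tgfb2 by 1.01 ± 0.13. Lower in arterial ECs were Ctgf (-2.89 ± 0.23), Tgfbr3 (-1.25 ± 0.25) and the Smad corepressor gene Skil (-0.93 ± 0.18). The mural marker lists moved with the zone: the pericyte list stood at 427 to 1992 CPM in arterial and 127 to 316 CPM in capillary ECs, with 0 of its 6 genes at 0, and the arterial SMC list at 1076 to 1950.0 CPM against 109.8 to 256 CPM, with 1 of its 8 genes at 0 in arterial ECs. Their part in the arterial differences, that of Smad6 included, was not tested.

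Venous ECs were only 11 to 17 cells per library. Of 9 members tested 3 were called lower than in capillary ECs: Id3 (-0.99 ± 0.24, adjusted p = 0.00183), Id1 (-0.95 ± 0.23, adjusted p = 0.00285) and Eng (-1.12 ± 0.29, adjusted p = 0.00614), against 3.76% of 6353 genes called, 1.16% higher and 2.60% lower. The median of all genes was itself -0.39 here. Eng was at 267, 259, 269 and 477 CPM in the venous ECs of CSD1, CSD2, HC1 and HC2, where HC2 reached its capillary level of 474 CPM. Id1 was below its capillary level in 3 of 4 libraries, HC2 being the exception at 2588 against 1999 CPM. Without HC1 0 members were called, and without CSD1 or without CSD2 1 was. None of the 3 was called with RLE size factors, which moved the median of all genes to -0.13 and the split of calls from 74 higher and 165 lower to 98 and 72.

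Of the other pathway genes, Lrg1, a glycoprotein that modulates TGF-β signaling in endothelium, was 7.34 ± 0.57 higher in venous ECs, at 267, 489, 44.9 and 204 CPM in CSD1, CSD2, HC1 and HC2. Tgfb2 had 1 venous UMI against 836 capillary UMIs, a ratio of pooled levels of 20.4 (exact 95% interval 3.66 to 808). Htra1, a protease gene of the TGF-β pathway, had 0 venous UMIs and was at least 2.26-fold lower than in capillary ECs at a floor of 3 UMIs over the group. Ctgf was lower by a log2 difference of -1.46 ± 0.42.

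**Figure D2:**
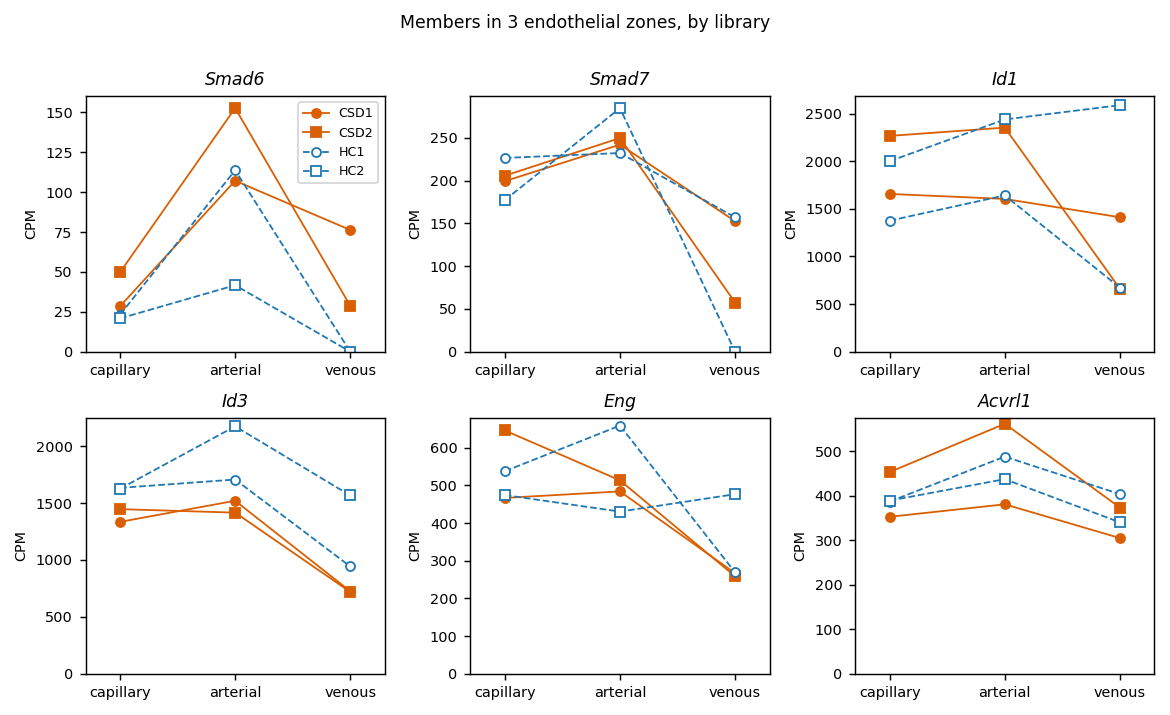
Level in CPM on the vertical axis of 6 members in capillary, arterial and venous ECs on the horizontal axis, with a line per library (solid for CSD, dashed for HC). Smad6 peaks in arterial ECs in all 4 libraries, and the venous points scatter widely, Id1 from 661 to 2588 CPM.

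The study's main question, whether chronic social defeat alters these cells, was put to each of the 11 classes with at least 10 cells in every library. In 71 tests of members in edgeR's quasi-likelihood fit, adjusted over all genes of a class, 0 were called, where 62 of 58214 gene tests were called in all (0.107%). By class the share of genes called was 0.0782% in ECs, 0.373% in capillary, 0.124% in arterial and 1.24% in venous ECs, 0.402% in astrocytes, 0.0519% in choroid plexus and 0.045% in pericytes, and 0% in microglia, arterial SMCs, ependymal cells and T cells. At an unadjusted p under 0.05 there were 6 member tests (8.45%) and 4.75% of all gene tests. Smad6 was among the 6 both in ECs and in capillary ECs, which share cells, so that these tests are not independent. DESeq2 called 0 members, with 2 at an unadjusted p under 0.05. These 2 were Id1 and Id3 in astrocytes, so that Smad6 was not among them. All 10 members passed the count filter in ECs and choroid plexus, 8 or 9 in capillary and arterial ECs, arterial SMCs and microglia, 5 in ependymal cells, 3 in pericytes, astrocytes and venous ECs, and 2 in T cells.

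The largest difference in ECs was that of Smad6. Scaled with TMM it stood at 46.7 and 59.1 CPM in CSD1 and CSD2 and at 39.4 and 27.2 CPM in HC1 and HC2, both CSD libraries above both HC libraries, as were 18.1% of all genes. The log2 fold change was 0.67 ± 0.22 (SE, n = 2 per group, adjusted p = 0.484 by edgeR). In capillary ECs Smad6 stood at 29.96 and 50.7 CPM against 23.3 and 20.5 CPM, with a log2 fold change of 0.94 ± 0.30 and an adjusted p of 0.308. Without CSD2 the capillary value was 0.45 ± 0.39, and without CSD1 it was 1.22 ± 0.27 with an adjusted p of 0.0006, so that the call rested on which pool was kept. Smad6 in all ECs was also called without CSD1 (0.83 ± 0.22, adjusted p = 0.0335). The capillary call was also made in edgeR with no filter on low counts (adjusted p = 0.0477). DESeq2 gave Smad6 no adjusted p in ECs or in capillary ECs. The arterial marker list in ECs stood at 1243 and 592 CPM in CSD1 and CSD2 and at 1235 and 891 CPM in HC1 and HC2, and its part in the Smad6 difference was not tested.

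Libraries of the groups did not overlap in 2 of 10 members in ECs (38.3% of all genes), 2 of 9 in capillary ECs (38.9%), 1 of 9 in arterial ECs (34.7%), 2 of 9 in arterial SMCs (30.1%), 2 of 8 in microglia (22.4%), 1 of 5 in ependymal cells (30.2%) and 0 of 10 in choroid plexus (28.9%). In the classes with fewest members tested the counts were 2 of 3 in astrocytes (23.1%), 1 of 3 in pericytes (35.1%), 1 of 3 in venous ECs (36.2%) and 1 of 2 in T cells (35.5%).

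Id3 was the only other EC member without overlap, with both CSD libraries (1378 and 1394 TMM-scaled CPM) below both HC libraries (1530.1 and 1620.0), as were 20.2% of all genes. Its log2 fold change was -0.18 ± 0.14 (adjusted p = 0.825). Id1 lay at 0.20 ± 0.23 in ECs and at 0.27 ± 0.20 in capillary ECs. Without CSD1 the capillary Id1 value was 0.47 ± 0.13, with CSD2 as the only CSD library. It was 0.05 ± 0.13 without CSD2, 0.05 ± 0.25 without HC1 and 0.55 ± 0.25 without HC2. The receptors differed little: Eng by 0.16 ± 0.18, Acvrl1 by 0.13 ± 0.17 and Tgfbr2 by 0.08 ± 0.15 in ECs, each smaller than its SE, and Tgfb1 by 0.20 ± 0.21. The signs of the members differed between classes, with no test of the counts: 9 of 10 values were positive in ECs (median 0.14), 7 of 9 in capillary ECs (0.11) and 6 of 10 in choroid plexus (0.07), but 2 of 9 in arterial ECs (-0.08), 3 of 9 in arterial SMCs (-0.29) and 2 of 8 in microglia (-0.10).

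Outside the endothelium the largest values were in astrocytes. Id1 lay at 24.8 and 105 CPM in CSD1 and CSD2 and at 419 and 272 CPM in HC1 and HC2, a log2 fold change of -2.27 ± 0.57 (adjusted p = 0.346), and Id3 at 273 and 332 CPM against 853 and 706 CPM, -1.42 ± 0.45 (adjusted p = 0.999). The CSD and HC libraries did not overlap in either gene, as in 23.1% of all astrocyte genes tested. Free RNA held Id1 at 276 and 245 CPM in CSD1 and CSD2 and at 267 and 345 CPM in HC1 and HC2. Astrocyte Id1 was above the free RNA of its library in HC1 and below it in the other 3 libraries, and Id3 was above it in 3 of 4. The part of free RNA in the astrocyte levels was not tested. The astrocyte values rest on 40 to 138 cells per library and, for Id1, on 2, 28, 28 and 15 UMIs. Id1 was called with at least 1000 UMIs per cell (adjusted p = 0.0347), with a marker share of at least 0.8 (0.037), with class totals (0.0367) and without HC2 (0.0048). It was not called under the other alternatives, among them markers outside the study's list (-1.62, adjusted p = 0.998), DESeq2 (adjusted p = 0.38) and leaving out CSD1 (-1.78, adjusted p = 0.9998), HC1 (-1.78) or CSD2, which moved the value to -3.67 ± 1.06 (adjusted p = 0.127). In the same cells the EC marker list stood at 260 and 176 CPM in CSD1 and CSD2 and at 120 and 489 CPM in HC1 and HC2 with 2 of its 14 genes at 0, and the choroid plexus list at 309.8 and 78.4 CPM against 314 and 453 CPM with 2 of 8 at 0. Their part in the result was not tested.

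Among the remaining tests with an unadjusted p under 0.05 were Id2 in T cells (-0.84 ± 0.34) and in ependymal cells (-0.80 ± 0.32), with adjusted p-values of 0.751 and 0.999 in edgeR. In microglia, where Tgfb1, Smad7 and Id2 were high, Tgfb1 lay at -0.11 ± 0.25, Smad7 at 0.17 ± 0.25, Id2 at -0.08 ± 0.46 and Tgfbr2 at -0.40 ± 0.24. In choroid plexus Bmp6 lay at 0.06 ± 0.19 and Id1 at 0.09 ± 0.17.

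**Figure D3:**
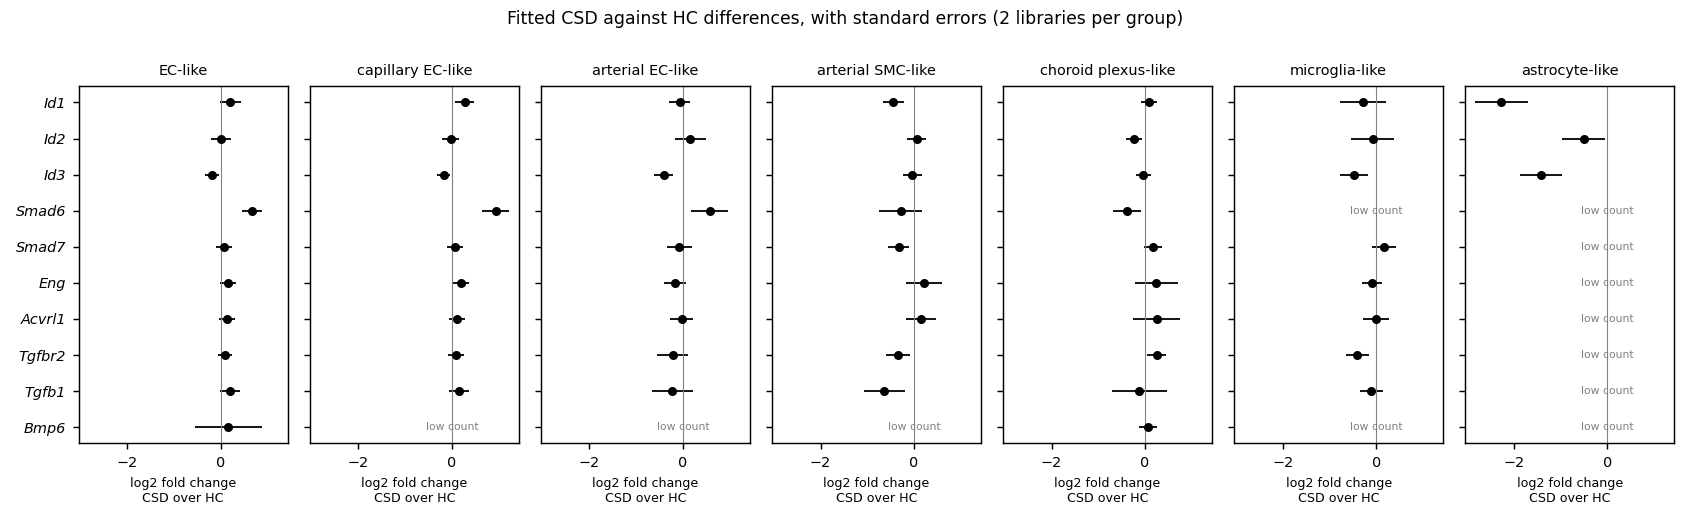
Fitted log2 fold change, CSD over HC, on the horizontal axis for each member in 7 classes, with points for the estimate and bars for 1 SE (2 libraries per group); "low count" marks members that did not pass the count filter. Smad6 lies right of 0 in ECs (0.67) and capillary ECs (0.94), and Id1 and Id3 lie left of 0 in astrocytes (-2.27 and -1.42).

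Across the 195 tests of other pathway genes in these classes, edgeR called 0 and DESeq2 called 1. In edgeR 20 had an unadjusted p under 0.05, where 4.75% of all gene tests did. Of the 20, ECs gave 7, capillary ECs 5 and arterial ECs 3, and the rest lay in other classes. ECs include the capillary and arterial ECs, so that these tests are not independent. The DESeq2 call was Ctgf in capillary ECs, at 289.9 and 273 CPM in CSD1 and CSD2 and 177 and 150.3 CPM in HC1 and HC2. Its log2 fold change was 0.83 ± 0.16 in edgeR (adjusted p = 0.0622) and 0.83 ± 0.23 in DESeq2 (adjusted p = 0.0374). In edgeR Ctgf was called with no filter on low counts (adjusted p = 0.00098). Its capillary value was 0.71 to 0.98 when a library was left out. Lrg1 in ECs was at 8.86 and 11.6 CPM in the CSD libraries and 1.498 and 1.505 CPM in the HC libraries, the HC values resting on few UMIs. Its log2 fold change was 2.77 ± 0.51 (adjusted p = 0.146 in edgeR), and 2.60 to 2.93 when a library was left out. It was called in edgeR with no filter on low counts (adjusted p = 0.0077), and DESeq2 gave it no adjusted p. Tgfb2 in ECs lay at -0.58 ± 0.16 (adjusted p = 0.355 in edgeR), and at -0.69 to -0.42 when a library was left out. Smad1, which encodes a receptor Smad, lay at 0.58 ± 0.17 in ECs (adjusted p = 0.378) and at 0.63 ± 0.20 in capillary ECs (0.322). Its EC value was 0.44 to 0.74 when a library was left out. Whether Ctgf, Lrg1, Tgfb2 and Smad1 were called changed with the library left out, in fits that keep 1 library in a group. These genes were named after their values were seen.

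Whether the response to CSD differed between classes was tested as an interaction in 5 pairs: ECs against microglia, pericytes and choroid plexus, and arterial and venous against capillary ECs. Of 47 member tests edgeR called 0 and DESeq2 called 0, with 3 and 1 at an unadjusted p under 0.05. Of all genes 0.0293% were called for ECs against pericytes, 0.112% for arterial and 0.013% for venous against capillary ECs, and 0% for ECs against microglia or choroid plexus. The 3 were Smad6 in ECs against choroid plexus (log2 difference of fold changes 0.997 ± 0.32, adjusted p = 0.986), Id2 in ECs against pericytes (2.27 ± 0.998) and Id2 in venous against capillary ECs (-2.78 ± 1.07), both Id2 values with an adjusted p of 1.0. A difference in the response of Smad6 between arterial and capillary ECs (-0.14 ± 0.46) was not detectable at this depth.

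ECs also differed in immediate-early genes such as Fos, Jun and Egr1, which stimulation and tissue dissociation both induce. In each library the 25% of ECs with the highest share of UMIs in a 14-gene immediate-early list, 1269 cells in all, were set against the other 3806. This class is a range cut from a score, with 31 to 83 ECs per library close to the cutoff, within 10% of its value. The list summed to 29528 to 37911 CPM in the high cells and to 4105 to 9108 CPM in the others. Over all ECs it stood at 17625 and 20670 CPM in CSD1 and CSD2 and at 13798 and 14763 CPM in HC1 and HC2.

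Of 9 members tested 5 were higher in the immediate-early-high ECs and none lower, against 6.92% of 8665 genes called higher and 4.21% lower. Id2 led, at 247, 193, 279 and 203 CPM in the high cells of CSD1, CSD2, HC1 and HC2 and at 147, 89.4, 127 and 99.2 CPM in the others, with no overlap (log2 difference 1.09 ± 0.10, adjusted p = 1.74e-11). Free RNA held Id2 at 160, 146, 179 and 112 CPM in the same libraries. The other ECs lay below it in each library, and the part of free RNA in their Id2 level was not tested. Id1 was at 1743, 2776, 1594 and 2777 CPM against 1445, 1765, 1188 and 1527 CPM, higher in 4 of 4 libraries (0.64 ± 0.07, adjusted p = 6.36e-09). Smad7 was higher in 4 of 4 (0.41 ± 0.09), Tgfb1 in 3 of 4 (0.43 ± 0.15, adjusted p = 0.0463) and Id3 in 3 of 4 (0.23 ± 0.08, adjusted p = 0.037). Eng was lower in 4 of 4 without being called (-0.21 ± 0.08, adjusted p = 0.0973), and Acvrl1 lay at 0.02 ± 0.08.

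DESeq2 called Id1 and Id2 only, so the other 3 calls depended on the test, and without HC2 edgeR called 3 members, losing Id3 and Tgfb1. Scaling to class totals moved the split of all calls from 600 higher and 365 lower to 446 and 671. With that scaling Eng was called lower (-0.29, adjusted p = 0.0094) and Id3 and Tgfb1 were not called. The high cells had more UMIs, with medians of 1267 to 2259 against 800.0 to 1369 per library, and more pericyte-list UMIs (612 against 210.4 CPM, mean of 4 libraries), arterial SMC-list UMIs (548 against 298 CPM) and arterial EC-list UMIs (1215 against 853 CPM). Their part in the differences was not tested. Within capillary ECs alone, a split added after the data were seen, the same 5 members were called, with Id2 at 1.30 ± 0.12 and Id1 at 0.82 ± 0.08.

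Of 29 other pathway genes 8 were called in this split. Nbl1 (1.23 ± 0.21), Bambi, a decoy receptor (1.03 ± 0.16), and Mgp (0.70 ± 0.09) were higher in the immediate-early-high ECs. Within capillary ECs Bambi (0.94 ± 0.21) and Ctgf (-0.68 ± 0.13) were called again, and Nbl1 (0.86, adjusted p = 0.129), Mgp (0.38, adjusted p = 0.296) and Htra1 (-0.55, adjusted p = 0.0996) were not. Arterial ECs, where Mgp was high, were 5.08 to 9.87% of the high cells and 1.81 to 5.39% of the others. In the whole split Sostdc1, a BMP antagonist (-1.09 ± 0.34), Ctgf (-0.77 ± 0.11) and Htra1 (-0.50 ± 0.16) were lower. Sostdc1 was far higher in choroid plexus (1105 CPM) than in ECs (13.1 CPM), and the choroid plexus marker list stood at 237 CPM in the high cells and 408 CPM in the others, with 0 of its 8 genes at 0. Its part in the Sostdc1 difference was not tested.

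**Figure D4:**
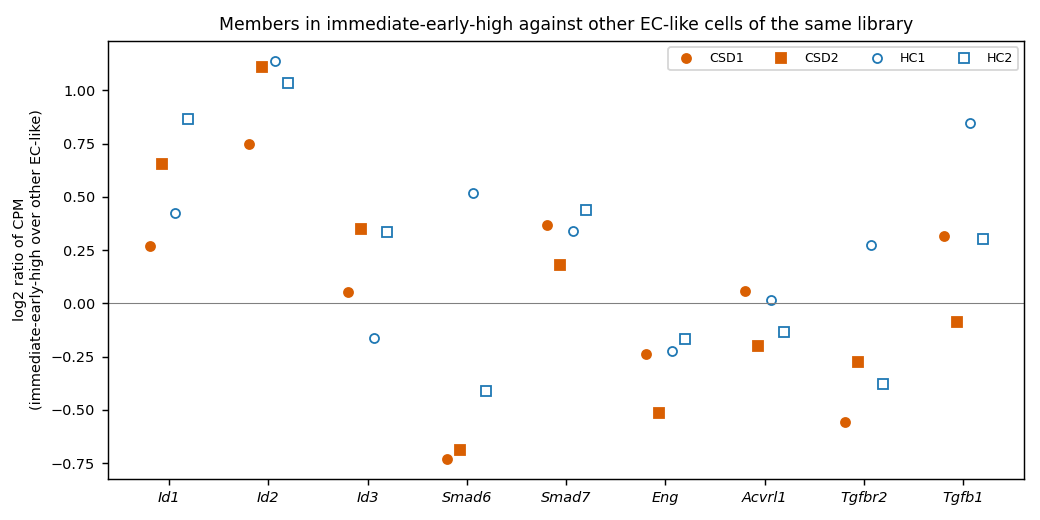
Log2 ratio of CPM in immediate-early-high over other ECs of the same library on the vertical axis for 9 members, with 1 point per library (filled for CSD, open for HC). All 4 points of Id1, Id2 and Smad7 lie above 0 and all 4 of Eng lie below it.

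As a description, the genes whose mean levels over the 10 classes were most like those of 9 members were listed from 7322 genes of at least 50 CPM in a class, by Pearson r of log2(CPM + 10). Acvrl1 was followed most closely by Galnt15 (0.984), Foxq1 (0.982) and Pecam1 (0.981), the last of which encodes CD31, and Eng by Notch4 (0.982), Tmem184b (0.972) and Cyth3 (0.969). Smad6 was followed by Fam129b (0.9502), Mmrn2 (0.948) and Crispld1 (0.942). Tgfb1 was followed by Bcl10 (0.981), Picalm (0.968) and Bach1 (0.966), Smad7 by Furin (0.948), Atf4 (0.939) and Lrrfip1 (0.934), and Tgfbr2 by Ubl3 (0.962), Txnip (0.958) and Sertad1 (0.945). After Id1, the closest genes to Id3 were Timp3 (0.938) and Syne2 (0.925), and after Id3 those to Id1 were Cd59a (0.933) and Pdgfd (0.924). Bmp6 was closest to Pebp1 (0.960), Hint2 (0.955) and Arl6 (0.944). The points share 4 libraries and, for related classes, much of their expression.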

How the data were processed

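Single-cell RNA libraries of CD31-captured brain cells (2 CSD, 2 HC, each from 4 pooled mice) were analysed from the raw UMI counts per gene and barcode that the authors deposited. Per the labels these counts came from Cell Ranger 4.0 and the GRCm38 (mm10) build. The members and all gene lists were chosen with earlier results of these data known. Cells with at least 500 UMIs, at least 250 genes and at most 25% mitochondrial UMIs were assigned to a class with at least 3 marker UMIs from at least 2 genes and at least 2/3 of all marker UMIs over 15 lists. ECs were split by the same rule over 3 zone lists. No doublet caller was run, and 125 to 416 cells per library with mixed markers stayed unassigned. Counts were summed per library and class and tested with edgeR 4.0.16 (filterByExpr, TMM, quasi-likelihood F test) in R 4.3.3, with library as a block between classes and Benjamini-Hochberg adjustment over all genes at 0.05. Classes with fewer than 10 cells in a library were not tested. SEs were the log2 fold change over the root of F. The code was tested on simulated data. DESeq2 1.42.0, RLE factors, no low-count filter, other cell and marker limits, the replicate block and leaving out each library were tried. Class totals and the split within capillary ECs were added after the data were seen. Intervals and floors cover counting error only. All members were named, with up to 3 called pathway genes a direction in each contrast and the 3 genes most like each member, except that those for Id2 are not reported here.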

Additional observations from a re-analysis of the deposited data

How the results depend on the processing

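The count of members called stayed at 8 for ECs against pericytes under every alternative, and at 0 for the differences in response between classes. For CSD against HC over all classes, a member called in several classes was counted in each, and ECs include the capillary ECs. This count was 1 with at least 1000 UMIs per cell, with a marker share of at least 0.8, with no filter on low counts and with class totals. It changed with the library left out. In ECs leaving out a library gave 0 to 1, and in capillary ECs 0 to 2, with 1 under no filter on low counts. For arterial against capillary ECs 2 members were called at a marker share of 0.8 and 1 to 2 without a library. For venous against capillary ECs 0 were called at a marker share of 0.8, with RLE factors, with DESeq2 and with class totals, and 0 to 3 without a library. For the immediate-early split 3 were called with at least 1000 UMIs, with at most 10% mitochondrial UMIs and with markers outside the study's list, 2 with DESeq2 and 3 to 4 without a library. The cause was not tested. Of 2174 recomputed member values, 38 called ones lost their call, 11 gained one and no called value changed sign.

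Counts over all genes moved more. CSD calls in ECs were 8 in the main fit, 115 with no low-count filter, 57 with DESeq2, 15 with at most 10% mitochondrial UMIs, 5 with at least 1000 UMIs or with class totals, and 30 to 329 without a library. In capillary ECs they were 33, 188 with no filter, 17 with at least 1000 UMIs, 19 at a marker share of 0.8 and 1 to 402 without a library. Arterial against capillary calls were 1229, against 708 with DESeq2, 548 at a marker share of 0.8 and 418 with markers outside the study's list. Venous against capillary calls were 239, against 93 with DESeq2, 102 at a marker share of 0.8 and 97 to 175 without a library (97 without HC1, 146 without CSD1). Immediate-early calls were 965, against 298 with DESeq2, 473 with at least 1000 UMIs, 588 with at most 10% mitochondrial UMIs and 574 without HC2.

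The labels name no batch or day that libraries of the same number share. Their deviations from the group means correlated, over 2 pairs, at 0.44 in microglia, 0.25 to 0.27 in T cells, pericytes, venous ECs and astrocytes, 0.12 in ependymal cells and 0.029 to 0.091 in the other classes. With the replicate block 0 members were called for CSD against HC in all classes, in ECs and in capillary ECs, and the genes called moved from 8 to 23 in ECs, 33 to 17 in capillary ECs, 0 to 15 in microglia, 6 to 21 in choroid plexus, 4 to 2 in arterial ECs, 1 to 2 in pericytes, 6 to 0 in venous ECs and 4 to 0 in astrocytes.

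With 2 pools per group, 11 to 17 venous ECs and 40 to 138 astrocytes per library, differences in these classes were measured with little precision. Larger classes were limited as well. In the simulated data the CSD fit called 57% of 2-fold changes in ECs and 21% in microglia. The fit for a difference in response between ECs and microglia called 23%. These data were drawn once, from the dispersion trend and the same mean share of each gene in every library apart from the changes. The dispersion of single genes and the distance of CSD2 from the other libraries were not simulated, so the percentages need not hold for the real libraries.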
